A study of Homo sapiens with 6 samples.

Results

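The keratins and epidermal differentiation genes described here are the protein-coding genes whose GENCODE 29 symbols name a keratin, a small proline-rich protein (SPRR), an S100A protein, a transglutaminase or a kallikrein, with CASP14, IVL, LOR (loricrin), FLG, CNFN and SCEL added. They number 108 of the 58735 genes counted, and comprise 55 keratins, 15 S100A genes, 15 kallikreins, 10 SPRR genes, 7 transglutaminases and the 6 added genes. Their transcripts were measured by RNA sequencing of wild-type A549, a human epithelial line established from a lung tumour. The cells received 2 µM of B35, which the series names as an inhibitor of the histone demethylase LSD1, for 72 h, or were left untreated, with 3 libraries in each group. The labels name no solvent for the untreated cells. They leave unsaid whether the libraries were grown as separate cultures, and the p-values therefore speak to library-to-library spread, which may be technical. A line grown in culture is not skin, so these genes are read here as an expression programme and not as a tissue.

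Keratins build the intermediate filaments of epithelial cells from pairs of a type I and a type II chain. Simple epithelia such as lung use KRT7, KRT8 and KRT18, whereas stratified epithelia switch chains as cells move up from the basal layer. In the outer epidermis, transglutaminases cross-link involucrin (IVL), loricrin and SPRR proteins into the cornified envelope, the protein shell of a dead squame. CASP14 and kallikreins process filaggrin (FLG) and the junctions of these squames, and most S100A genes, which encode small calcium-binding proteins, lie beside the SPRR genes on chromosome 1.

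Library totals were 17209863 to 18530670 counts with B35 and 17141478 to 18398450 counts in control cells. KDM1A, which encodes LSD1, was at 194, 183 and 176 CPM (counts scaled to library size) with B35, against 199, 196 and 200 CPM in control cells, and did not pass the test (edgeR adjusted p = 0.432). That level says nothing of the enzyme's activity. Among the markers of the line, KRT7, KRT8 and KRT18 were abundant. NAPSA had no count, SFTPB had 2 counts over all libraries, and KRT19 had 12 counts with B35 and 13 in control cells. AKR1B10 was also sparse, with 34 counts with B35 and 58 in control cells. So were ALDH1A1 (28 and 11 counts), CDH1 (35 and 71), NKX2-1 (6 and 12) and SFTPC (15 and 11). Of the 13 markers in that list KRT19, ALDH1A1, NKX2-1, SFTPB, SFTPC and NAPSA had too few counts to test. Of the others EPCAM and AKR1C1 rose and KRT8 fell, where 15.4% of all genes tested passed. EPCAM averaged 7.21 CPM with B35 and 3.36 CPM in control cells, and AKR1C1 31.9 and 13.4 CPM. No marker of another cell type that could be tested passed. The 7 fibroblast markers summed to 19.8 to 22.8 CPM with B35 and 27.2 to 27.3 CPM in control cells, nearly all COL1A1. The 5 leukocyte markers summed to 1.21 to 1.53 CPM with B35 and 1.25 to 1.55 CPM in control cells. The 3 endothelial markers summed to 7.38 to 9.44 CPM with B35 and 5.85 to 9.22 CPM in control cells. B35 replicate 1 stood apart from the other B35 libraries on the second principal component, which held 20.9% of the variance.

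Most of the 108 genes were silent or nearly so in both groups. No library held a count of 59 of them, and another 20 had too few counts to test. A gene with no count could still be present at up to 3 counts over a group, or 0.0549 CPM with B35 and 0.0568 CPM in control cells. Of the 29 genes tested, 8 (27.6%) passed, 4 higher and 4 lower with B35 (edgeR's quasi-likelihood test, with adjusted p-values by Benjamini-Hochberg under 0.05). Over all 14773 genes tested, 15.4% passed, 8.82% higher and 6.59% lower. The members were chosen with earlier results of these data known, so the difference in shares is no test of the set. CASP14, TGM2, KRT15 and KRT80 rose, and TGM1, KRT8, KRT17 and S100A10 fell. The median log2 fold change of the 29 was 0.17, and that of all genes tested was 0.0067. The CPM values of the groups did not overlap in 11 of the 29 (37.9%), close to the 36.3% seen over all tested genes. The measurements are of bulk RNA, so fewer cells making a transcript and less of it per cell cannot be told apart. After trends on GC content and exon length were taken out of each library, the whole table gave 1704 genes higher and 2562 lower, against 1303 and 973 without that step, and 6 members rose and 5 fell.

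**Figure D1:**
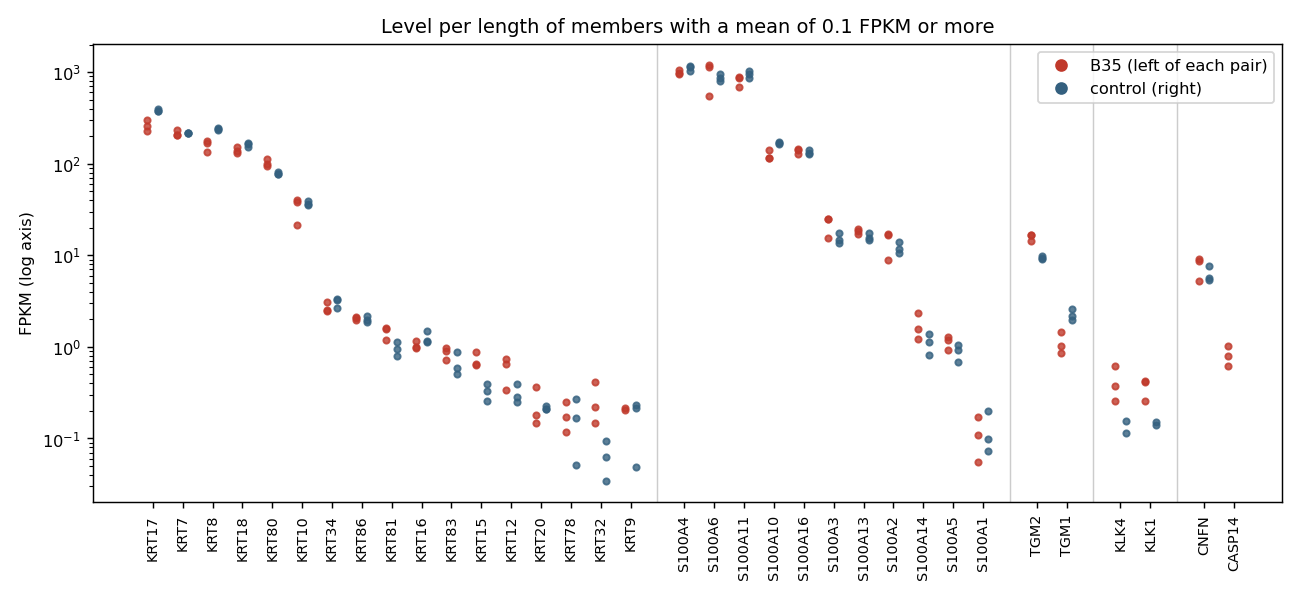
Level per length (FPKM, log axis) of the members with a mean of at least 0.1 FPKM, grouped by family, with 1 point per library and B35 left of control; libraries at 0 are not drawn. S100A4, S100A6 and S100A11 lie at the top, with means of 1054, 922 and 877 FPKM, and SPRR genes are missing because none reaches this level.

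Per unit length, S100A4, S100A6 and S100A11 were the most abundant members, at means of 1054, 922 and 877 FPKM over the 6 libraries. KRT17, KRT7, KRT8 and KRT18 came next, at 323, 216, 200.3 and 151 FPKM, and S100A10, S100A16 and KRT80 followed at 146, 135 and 90.1 FPKM. The remaining members were at or below the 35.1 FPKM of KRT10, and those that stood above 10 FPKM besides it were S100A3, S100A13, S100A2 and TGM2.

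CASP14, a caspase of keratinocytes that matures filaggrin rather than killing cells, was the member that changed most. It lies on chromosome 19 (15049384 to 15058293, plus strand, hg38). It had 64, 39 and 54 counts in the B35 libraries and no count in any control library. The groups did not overlap, and the gene passed the filter on low counts through its B35 values alone. In CPM it stood at 3.62, 2.16 and 2.85 with B35, at least 50.5-fold higher than control cells against a floor of 3 counts over that group (edgeR adjusted p = 0.000326). It remained low in absolute terms, with 0.810 ± 0.203 FPKM (SD, n = 3) with B35 and a listed 0 in each control library. The call held with each library left out in turn (edgeR adjusted p between 0.000197 and 0.00206). Of the 12 other protein-coding genes that start within 250 kb of CASP14, 4 could be tested. Among these 4, 1 passed, against 15.4% of all genes tested, and 4 genes are too few to compare shares. It was NOTCH3, the gene of a Notch receptor, which rose (log2 1.33 ± 0.19, SE, edgeR adjusted p = 0.00183).

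Of the other added genes, most were silent or nearly so in both groups, and CNFN did not pass. IVL, LOR and SCEL, which encode structural proteins of the envelope, had no count in any library. FLG, the substrate of CASP14, had 1, 1 and 4 counts with B35, against 2, 2 and 3 counts in control cells. CNFN, the gene of the envelope protein cornifelin, was, besides CASP14, the 1 added gene with enough counts to test. It was at 5.54, 5.33 and 3.22 CPM with B35, against 4.68, 3.27 and 3.39 CPM in control cells, and the groups overlapped (log2 0.31 ± 0.25, SE, edgeR adjusted p = 0.446). Of 8 markers of keratinocytes and squamous epithelium KRT10 and TP63 alone could be tested, and neither passed. KRT1, KRT14, DSG1, DSG3 and DSC3 had no count, and KRT5 had 1 count in a control library. TP63, the master factor of stratified epithelia, had 51 counts with B35 and 22 in control cells, with groups that did not overlap (edgeR adjusted p = 0.0959). TP63 met the filter on low counts through its B35 values alone. The list summed to 47.3 to 87.7 CPM with B35 and 76.5 to 84.8 CPM in control cells, of which KRT10, at 72.5 CPM on average with B35 and 79.4 CPM in control cells, gave nearly all.

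The regions ahead of 4 of these genes are shown because CASP14 appeared with B35 while IVL and FLG, whose upstream regions share a motif with it, had no count or next to none. The sequences are from RefSeq on GRCh38.p14, which has the same coordinates as hg38. They are 5′ to 3′ on the strand of the gene and stop at the first base annotated as transcribed by RefSeq or GENCODE. Capitals mark TGANTCA (the AP-1 motif), TATAAA (the TATA box) and GGGCGG (the GC box) on either strand, and CAGGTG (an E-box) was also searched. It is absent from the printed stretches, but begins 23 bases before the RefSeq start of CASP14, in bases not printed because GENCODE annotates them as transcribed.
CASP14 (chr19:15049230-15049383, plus strand): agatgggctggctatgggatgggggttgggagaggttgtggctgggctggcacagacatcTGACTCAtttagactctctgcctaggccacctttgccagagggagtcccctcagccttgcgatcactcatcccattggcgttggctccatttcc
IVL (chr1:152908296-152908544, plus strand): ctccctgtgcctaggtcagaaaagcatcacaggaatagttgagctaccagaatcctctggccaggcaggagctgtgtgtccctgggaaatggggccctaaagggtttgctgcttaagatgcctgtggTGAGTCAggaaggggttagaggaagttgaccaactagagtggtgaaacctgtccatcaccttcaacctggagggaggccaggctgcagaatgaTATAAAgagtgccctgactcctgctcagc
FLG (chr1:152325240-152325489, minus strand): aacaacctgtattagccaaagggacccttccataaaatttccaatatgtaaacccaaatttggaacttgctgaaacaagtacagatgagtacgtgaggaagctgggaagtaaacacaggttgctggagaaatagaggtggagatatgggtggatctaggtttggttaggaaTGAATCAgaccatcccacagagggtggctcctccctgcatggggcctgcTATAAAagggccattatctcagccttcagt
CNFN (chr19:42390298-42390547, minus strand): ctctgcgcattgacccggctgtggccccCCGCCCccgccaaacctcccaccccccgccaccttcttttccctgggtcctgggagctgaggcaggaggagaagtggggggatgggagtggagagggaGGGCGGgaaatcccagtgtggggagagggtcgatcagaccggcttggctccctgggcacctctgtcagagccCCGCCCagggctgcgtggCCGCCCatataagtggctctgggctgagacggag
The 250 bases before the RefSeq start held TGANTCA in 5 of the 6 added genes, CASP14, IVL, LOR, FLG and SCEL, and in 6 of 8 SPRR genes, against 6.60% of 27305 promoters of the same length. In CASP14 it began 190 bases before that start, in IVL 123, in FLG 79 and in LOR 48. Of the 34 keratins, 13 kallikreins and 4 transglutaminases with such a window none held TGANTCA, and 3 of 15 S100A genes did. Over the 80 members with a window 14 held it, or 17.5%. TATAAA was found in 21 of the 34 keratins, 7 of the 8 SPRR genes and 39 of the 80 members (48.8%), against 11.1% of all promoters. GGGCGG was in 21 and CAGGTG in 23 of the 80 members with a window, or 26.3% and 28.8%, against 42.3% and 17.5% of all promoters. A window was given for 80 of the 108 members, and 47 of those 80 had no count. Of the 8 members that passed the test 3 had a window, and TGM1, TGM2, KRT15, KRT17 and KRT80 had none. A match of letters is a description of the window and not evidence of a bound factor.

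Of the transglutaminases, which join proteins through glutamine and lysine side chains, TGM2 rose and TGM1 fell. TGM2, the widely expressed tissue transglutaminase (chromosome 20, 38127387 to 38166578, minus strand), was at 118, 134 and 137 CPM with B35, against 74.8, 73.5 and 78.1 CPM in control cells. The groups did not overlap, and the gene was 1.71-fold higher (log2 0.78 ± 0.094, SE, edgeR adjusted p = 0.000711). It shares 394 of its 8036 exon bases with RPRD1B on the other strand, which was at 64.4 ± 2.77 CPM with B35 and 65.9 ± 1.503 CPM in control cells (SD, n = 3 each). TGM1, the membrane-bound enzyme that assembles the cornified envelope (chromosome 14, 24249114 to 24264432, minus strand), was at 3.22, 5.49 and 3.95 CPM with B35, against 7.42, 9.74 and 8.09 CPM in control cells. Again the groups did not overlap, and it was 1.99-fold lower (log2 −0.99 ± 0.21, SE, edgeR adjusted p = 0.0119). Both calls held with each library left out in turn. Per length, TGM2 exceeded TGM1 by 17.0, 11.3 and 16.1 times in the B35 libraries, against 4.69, 3.51 and 4.49 times in the control libraries. Of the other 5 transglutaminases, TGM5, TGM6 and TGM7 had no count. TGM3, which also serves the epidermis, had 4 counts with B35 and 2 in control cells, and TGM4, an enzyme of the prostate, had 4 and 12 counts.

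**Figure D2:**
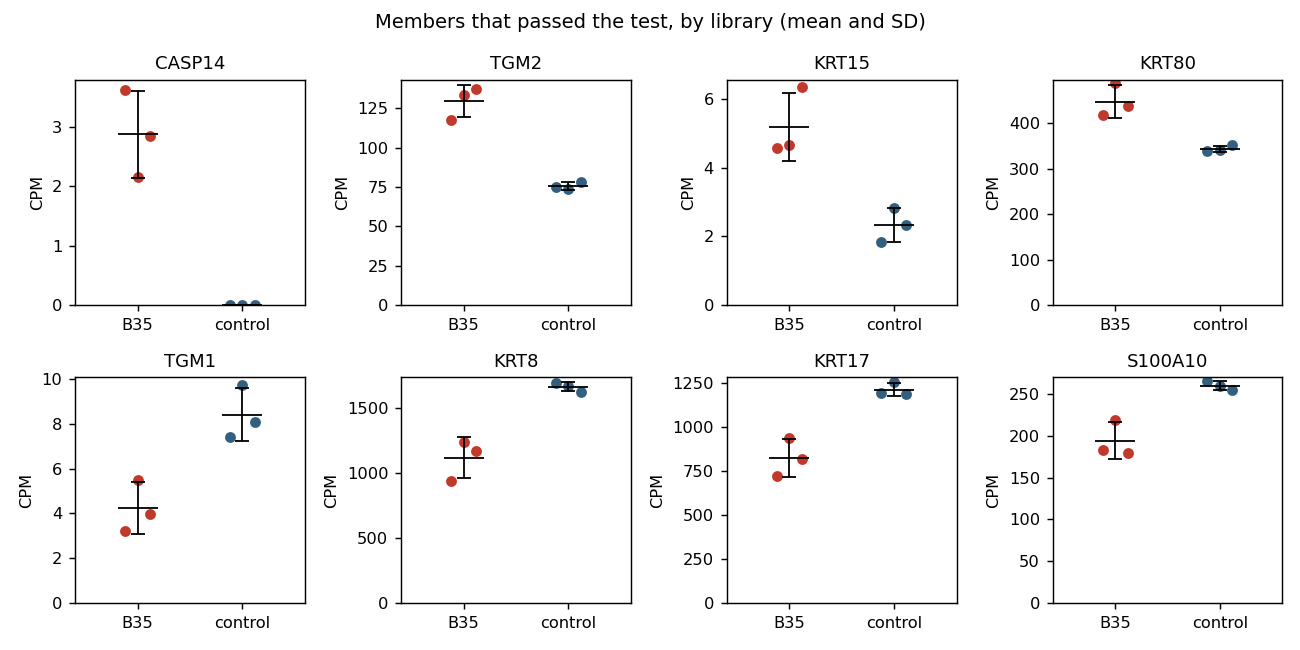
CPM of the 8 members that passed the test in each library, B35 left of control, with the mean and SD over 3 libraries; each vertical axis starts at 0. The groups do not overlap in any panel, and CASP14 is at 0 in the 3 control libraries.

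Among keratins, 14 of 55 could be tested, 2 rose and 2 fell, or 28.6% called against 15.4% of all genes tested. KRT8, the type II chain of simple epithelia (chromosome 12, 52897187 to 52949954, minus strand), was at 939, 1241 and 1170.3 CPM with B35, against 1693, 1672 and 1624 CPM in control cells. Every B35 library lay under every control library, and the gene was 1.49-fold lower (log2 −0.57 ± 0.11, SE, edgeR adjusted p = 0.00611). KRT17, a type I chain of skin appendages that is induced in wounded epidermis (chromosome 17, 41619441 to 41624842, minus strand), fell to a similar extent. It was at 721, 936 and 817 CPM with B35, against 1193, 1256 and 1191 CPM in control cells, or 1.47-fold lower (log2 −0.56 ± 0.10, SE, edgeR adjusted p = 0.00578). Neither call was lost with any 1 library left out. Processed pseudogenes and close relatives of these keratins exist in the genome, and the sources used here do not say how reads that fit several genes were treated.

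KRT18 was lower without passing the test, and KRT7 was nearly equal between the groups. KRT18, the type I partner of KRT8, was at 448, 489.8 and 430.1 CPM with B35, against 550.1, 498 and 531 CPM in control cells. These groups also did not overlap, yet the difference did not pass (log2 −0.21 ± 0.089, SE, edgeR adjusted p = 0.143). It passed once the GC and length trends were removed (log2 −0.30, edgeR adjusted p = 0.0361). That step also moved the median log2 fold change of all genes tested from 0.0067 to −0.0477. KRT8 and KRT18 share 525 exon bases on opposite strands, 7.63% of KRT8 and 16.3% of KRT18, and whether the counting used strand is unstated. KRT7, another type II chain of glandular epithelia, was at 864, 964 and 861 CPM with B35, against 898, 894 and 885 CPM in control cells. The groups overlapped, with a log2 fold change of 0.0065 and a 95% interval of −0.16 to 0.17.

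KRT80 and KRT15 rose. KRT80, a type II chain found near desmosomes in differentiating cells (chromosome 12, 52168996 to 52192000, minus strand), was at 418, 488 and 437 CPM with B35, against 339, 341 and 352 CPM in control cells. It was 1.30-fold higher without overlap of the groups (log2 0.38 ± 0.090, SE, edgeR adjusted p = 0.0170). Its call was lost without B35 replicate 2 or control replicate 1, 2 or 3 (edgeR adjusted p = 0.0606, 0.0735, 0.0739 and 0.0862), with the log2 fold change between 0.31 and 0.43 in the 6 such fits. KRT15, a type I chain of basal cells and hair follicle stem cells (chromosome 17, 41513743 to 41522529, minus strand), was at 4.58, 4.66 and 6.33 CPM with B35, against 1.84, 2.82 and 2.32 CPM in control cells. It was 2.23-fold higher, again without overlap (log2 1.16 ± 0.24, SE, edgeR adjusted p = 0.00923), and kept its call with each library left out.

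**Figure D3:**
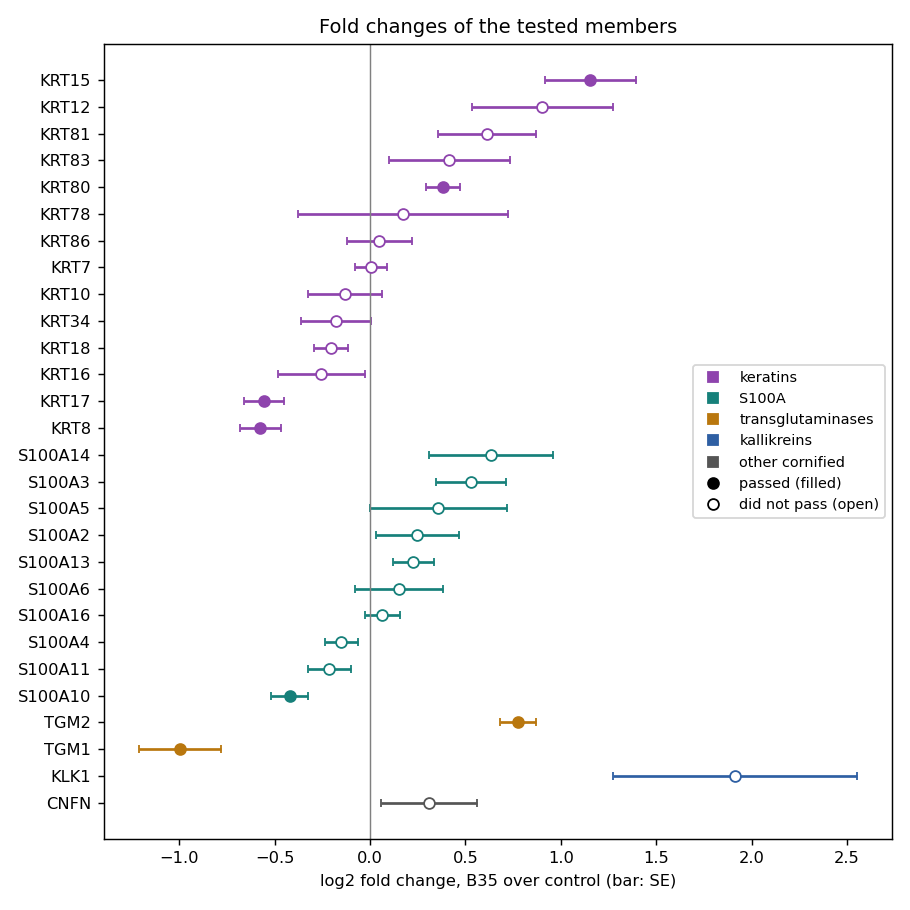
Log2 fold change of B35 over control for 28 tested members, ordered by family, with bars for the SE and filled points for genes that passed the test. KRT15 and TGM2 lie right of 0, KRT8, KRT17, S100A10 and TGM1 left of it, and CASP14 is left out because its control libraries hold no count.

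The make-up of the keratin transcripts therefore differed between the groups. KRT17 held 27.3%, 29.01% and 28.2% of the summed keratin FPKM in the B35 libraries, against 33.4%, 35.05% and 33.9% in the control libraries. KRT8 held 16.1%, 17.5% and 18.4% with B35, against 21.6%, 21.2% and 21.0% in control cells. KRT7 had 25.0%, 22.8% and 22.7% with B35, against 19.2%, 19.1% and 19.2% in control cells, and KRT80 averaged 11.0% with B35 and 6.96% in control cells. Shares sum to the whole, so KRT7 took a larger share at a nearly equal level. KRT8 per KRT18, in FPKM, was 0.979, 1.19 and 1.27 with B35, against 1.44, 1.57 and 1.43 in control cells. Type II over type I keratin FPKM was 1.13, 1.07 and 1.10 with B35, against 0.921, 0.903 and 0.917 in control cells. Both ratios separated the groups, with a two-sided exact permutation p of 0.1, the smallest that 3 against 3 libraries allow, as it was for each of the 7 ratios computed.

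**Figure D4:**
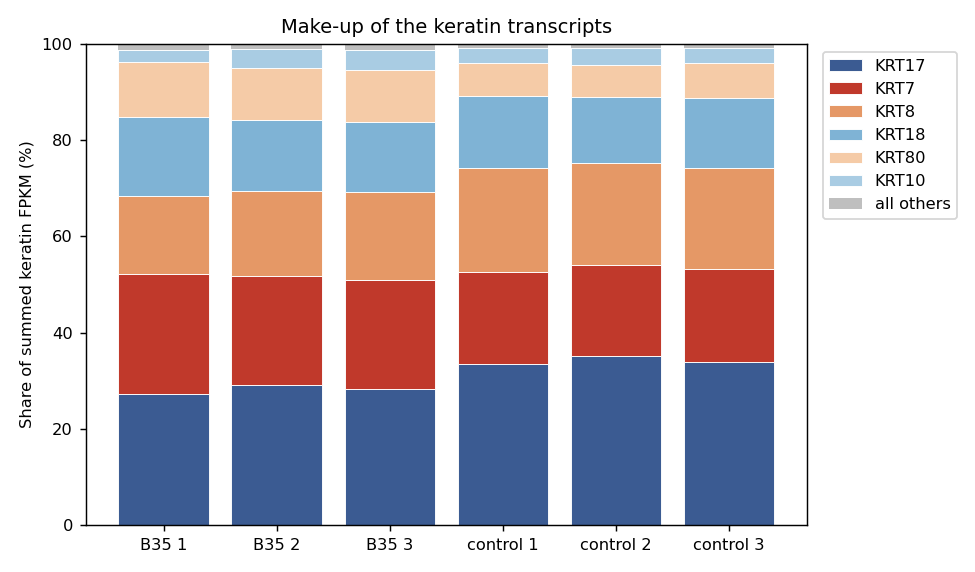
Share of the summed keratin FPKM held by the 6 most abundant keratins in each library (stacked to 100%), B35 libraries left of control libraries. KRT17 and KRT8 take smaller shares in each B35 library than in any control library, and KRT7 and KRT80 larger ones.

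Of the remaining keratins KRT10 was the most abundant, and the others averaged at most 5.40 CPM in either group. KRT10, a suprabasal type I chain, was at 46.1, 86.7 and 84.5 CPM with B35, against 77.9, 84.5 and 75.9 CPM in control cells, with B35 replicate 1 the lowest of the 6 libraries. Hair keratins KRT34, KRT86, KRT81 and KRT83 were between 1.24 and 5.40 CPM on average in each group, and none passed. Of these, the type II chains KRT81, KRT83 and KRT86 are close in sequence and could exchange reads, while KRT34 is a type I chain. KRT81 was at 2.32, 3.16 and 3.06 CPM with B35, against 1.84, 1.55 and 2.20 CPM in control cells (edgeR adjusted p = 0.130). KRT16, which pairs with KRT6 chains in wounded skin, averaged 2.63 CPM with B35 and 3.14 CPM in control cells, while KRT6A, KRT6B and KRT6C had no count. KRT12, a chain of the cornea, averaged 1.68 CPM with B35 and 0.895 CPM in control cells (edgeR adjusted p = 0.125). Of 26 hair and root sheath keratins 19 had no count, and of 3 basal keratins KRT15 was the 1 that could be tested. KRT4, of mucosal epithelia, had no count with B35 and 7 counts in control cells. KRT32, a hair keratin, had 25 counts with B35 and 6 in control cells.

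S100A10 was the 1 of 10 tested S100A genes that passed (10%, against 15.4% of all genes tested). S100A10 pairs with annexin A2 at the cell membrane (chromosome 1, 151982915 to 151994390, minus strand). It was at 183, 219.5 and 179.8 CPM with B35, against 265, 259.8 and 255 CPM in control cells. The groups did not overlap, and it was 1.34-fold lower (log2 −0.42 ± 0.099, SE, edgeR adjusted p = 0.0167). Its call was lost without B35 replicate 3 or control replicate 1, 2 or 3 (edgeR adjusted p = 0.0518, 0.0684, 0.0573 and 0.0733), with the log2 fold change between −0.52 and −0.37 in the 6 such fits.

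The most abundant S100A genes had overlapping groups. S100A4, linked to cell motility, was at 1029, 1082 and 988 CPM with B35, against 1073, 1186 and 1185 CPM in control cells (log2 −0.15 ± 0.086, SE, edgeR adjusted p = 0.263). S100A11, a keratinocyte growth regulator that binds annexin A1, was at 592, 608 and 472 CPM with B35, against 700.3, 594 and 646 CPM in control cells (edgeR adjusted p = 0.225). S100A6, or calcyclin, was at 539, 1175 and 1141 CPM with B35, against 787, 936 and 847 CPM in control cells. B35 replicate 1 was the lowest of the 6 libraries and the other B35 libraries the highest (edgeR adjusted p = 0.706). Without B35 replicate 1, S100A6 was 1.35-fold higher (edgeR adjusted p = 0.00412), and S100A2 and S100A3 also passed (log2 0.49 and 0.72, edgeR adjusted p = 0.0177 and 0.00243). With all 6 libraries S100A2 was at 14.3, 26.3 and 27.7 CPM with B35, against 16.8, 22.1 and 18.6 CPM in control cells. S100A3 was at 15.03, 24.3 and 24.04 CPM with B35, against 14.2, 16.7 and 13.02 CPM in control cells (edgeR adjusted p = 0.0775). B35 replicate 1 was the lowest of the B35 libraries in 16 of the 29 tested members (55.2%) and in 39.0% of all tested genes. S100A7, S100A8, S100A9 and S100A12, the S100A genes of inflamed skin and neutrophils, had no count, and the neighbouring SPRR genes were silent too. SPRR2E alone of the 10 SPRR genes had counts, 0, 1 and 4 with B35 and 2, 0 and 0 in control cells.

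Kallikreins, secreted serine proteases coded side by side on chromosome 19, were near the limit of detection. Of the 15 genes 9 had no count and KLK1 was the 1 that could be tested. Summed over the family there were 31, 47 and 44 counts in the B35 libraries, against 13, 4 and 14 in the control libraries. KLK1, the tissue kallikrein that releases kinins, had 18, 11 and 19 counts with B35, against 6, 0 and 6 in control cells. It did not overlap between the groups and did not pass (log2 1.91 ± 0.64, SE, edgeR adjusted p = 0.0660). KLK1 met the filter on low counts through its B35 values alone. KLK4, a protease of enamel and prostate, had 9, 22 and 14 counts with B35, against 4, 0 and 5 in control cells, too few for the filter. With no filter beyond 1 count, which tests 27717 genes, both passed (edgeR adjusted p = 0.0189 for KLK1 and 0.00954 for KLK4). KLK10 had 22 counts with B35 and 8 in control cells. KLK5, KLK7 and KLK14, which shed squames from the skin surface, had 2, 0 and 4 counts with B35 and 1, 0 and 1 in control cells.

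**Figure D5:**
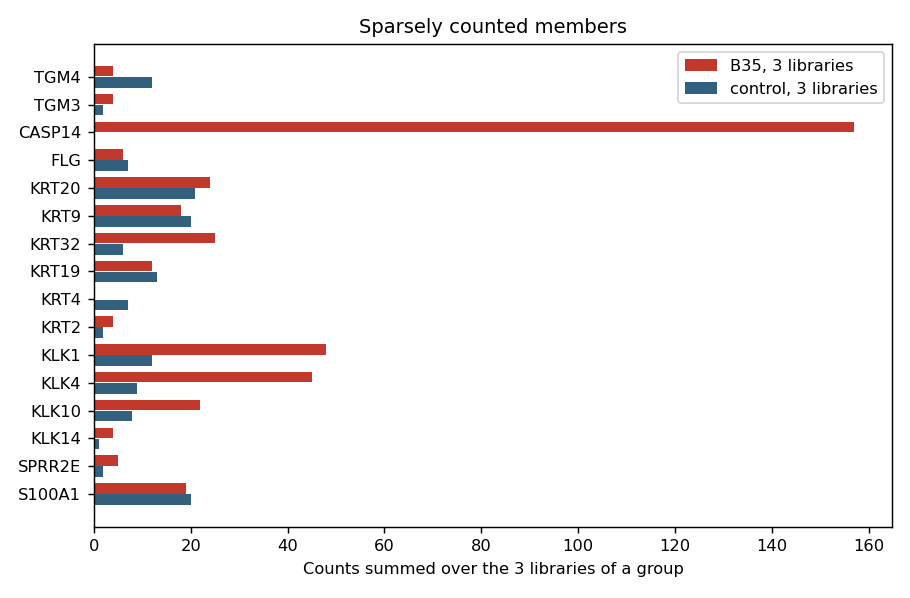
Counts summed over the 3 libraries of each group for CASP14, KLK1 and the untested members with at least 5 counts over all 6 libraries, B35 bars above control bars. CASP14 stands at 157 counts with B35 and 0 in control cells, and KLK1 and KLK4 at 48 and 45 counts with B35 against 12 and 9 in control cells.

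Over 5 further lists, which hold no member, 15 of 50 tested genes (30.0%) passed, 13 higher and 2 lower. Of all genes tested 15.4% passed, 8.82% higher and 6.59% lower. The lists cover epidermal differentiation and filament partners, and not all their genes are particular to epidermis, vimentin among them. They were chosen with earlier results of these data known, so the difference in shares is no test of the lists. Of 12 tested transcription factors 4 (33.3%) rose and none fell. PRDM1, a repressor that drives late keratinocyte differentiation, was at 28.7 ± 2.65 CPM with B35 and 15.8 ± 0.389 CPM in control cells (SD, n = 3 each). SOX9, of hair follicle progenitors, rose by 2.63-fold, EHF, an ETS factor of epithelia, by 2.11-fold, and RUNX1 by 1.54-fold. TP63 did not pass, and ZNF750, which acts after it, had no count. KLF4, a barrier factor, was at 50.3 CPM with B35 and 50.8 CPM in control cells.

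Of 8 tested barrier lipid genes 3 (37.5%) rose, UGCG, which makes glucosylceramide (1.62-fold), the lipoxygenase ALOXE3 (2.09-fold) and the lipid transporter ABCA12 (1.61-fold). Of 11 tested proteases and modifying enzymes 4 rose and 1 fell (45.5% together). The rises were the kallikrein inhibitor SPINK6, the arginine deiminase PADI1, the cysteine protease CTSV and prostasin (PRSS8), by 5.35-, 2.20-, 1.43- and 1.38-fold. SPINK6 was at 0.838 ± 0.187 CPM with B35 and 0.151 ± 0.115 CPM in control cells (SD, n = 3 each). Like CASP14, it passed the filter on low counts through its B35 values alone. BLMH, a protease that breaks filaggrin down to amino acids, was 1.36-fold lower. Of 8 tested envelope and late differentiation genes PI3, the elastase inhibitor elafin that transglutaminases cross-link, rose by 1.69-fold and none fell (12.5% called). Of the 46 listed, 30 had no count. The log2 fold change was above 0 in 5 of the 8 and below 0 in 3. PPL averaged 184 CPM with B35 and 153 CPM in control cells, without overlap (edgeR adjusted p = 0.114). EVPL averaged 61.2 and 49.3 CPM, with overlap (edgeR adjusted p = 0.237). Of 12 tested filament partners vimentin (VIM) rose by 1.32-fold and PNN, a desmosome-associated nuclear protein, was 1.42-fold lower (16.7% called). With each library left out in turn, PRDM1, SOX9, EHF, RUNX1 and UGCG kept their calls in all 6 fits and the other 10 lost theirs in at least 1 (edgeR adjusted p up to 0.162). Rises over the 5 lists numbered 7, 6 and 5 without control replicates 1, 2 and 3, and falls 4 without B35 replicate 1, 1 without control replicate 1 and 0 without control replicate 3.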

How the data were processed

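RNA from 3 B35-treated and 3 untreated libraries of A549 cells was extracted with TRIzol, and libraries were made with a NEBNext Ultra kit, per the labels' protocols. The submitters' processing notes name HISAT2 2.0.5, featureCounts 1.5.0-p3 and the build hg38, and no strand setting was found. The deposited files give the authors' whole-number count per gene and the authors' FPKM. All 58735 identifiers matched GENCODE 29. FPKM served for levels between genes. It was tested only as ratios between members, by exact permutation of the libraries.

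Counts were tested in R 4.3.3 with edgeR 4.0.16 (filterByExpr with a minimum count of 10 and total of 15, TMM, quasi-likelihood test, two-sided) over 14773 genes, after a check on simulated data. CPM uses the TMM factors (0.979 to 1.03). The SE is the log2 fold change over the square root of F, and a 95% interval is 1.96 SE on either side. Floors cover counting error only. No replicate pair matched within counting error (chi-square over degrees of freedom of 4.46 to 32.3). Alternatives were other scalings and filters, each library left out, a replicate term, DESeq2 1.42.0, limma-voom (limma 3.58.1), a robust fit, and spline offsets for GC content and exon length. The members and lists were chosen with earlier results of these data known. Named genes were KDM1A, CASP14, every member called, the most abundant of each family, members at 0 in 1 group with 10 or more counts in the other, and up to 4 called genes per list and direction; further members were named after their values were seen. Tables used Python 3.11.15 and pandas 2.3.3.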

Additional observations from a re-analysis of the deposited data

How the results depend on the processing

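All 8 member calls held with relative log expression and upper-quartile scaling, either other filter, DESeq2, limma-voom, the robust fit, the replicate block and the removal of GC and length trends. With 1 library left out, 6 of the 8 (CASP14, TGM1, TGM2, KRT8, KRT15 and KRT17) held in every fit. Members higher numbered 7 with no filter and 3 to 8 with 1 library left out, and members lower 3 to 4. Such fits gave 587 to 1822 genes higher and 294 to 1520 lower over the whole table. Keratins higher numbered 1 to 2, S100A genes higher 0 to 3 and lower 0 to 1, and kallikreins higher 0 to 1. Genes of the 5 lists higher numbered 5 to 15, and lower 0 to 4. With the GC and length trends removed 2562 genes were lower. S100A genes higher, 0 as reported, numbered 1 with no filter, the replicate block, DESeq2 or those trends removed. Kallikreins higher, 0 as reported, numbered 2 with no filter and 1 with the replicate block or the trends removed. Genes of the 5 lists lower, 2 as reported, numbered 1 with upper-quartile scaling and 6 with no filter. They numbered 6 with the replicate block, 4 with DESeq2 and 7 with the trends removed.

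KRT7, at a log2 fold change of 0.0065, was below 0 with relative log expression scaling (−0.0019), no filter (−0.0036), DESeq2 (−0.0019), the trends removed (−0.099), without B35 replicate 2 (−0.053) and without control replicate 3 (−0.0026), and reached 0.036 without B35 replicate 3. S100A6 was at −0.035 without B35 replicate 2 and at 0.43 without B35 replicate 1. The causes of these shifts were not tested. The labels do not say that equal replicate numbers mark a shared culture, and same-numbered libraries deviated together with correlations of 0.163, 0.0162 and −0.063 across genes. B35 replicate 3 correlated best with control replicate 2 (0.249). A replicate block gave 1594 genes higher and 1261 lower, and 6 members higher and 4 lower. Members under the filter, among them most kallikreins and the SPRR gene with counts, are limited by depth.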
